A study of Mus musculus with 12 samples.

Results

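The genes described here are 33 nuclear genes that encode subunits of complexes II to V of the mitochondrial respiratory chain, out of 41388 genes in the count tables. They were taken by name: 4 subunits of complex II (succinate dehydrogenase), 9 of complex III (the cytochrome bc complex), 11 of complex IV (cytochrome c oxidase) and 9 of complex V (the ATP synthase). All 33 were found through their Ensembl identifiers, and all 33 were among the 13364 genes that passed the filter on low counts. Their messages were counted in 12 libraries from C57/Bl6 mice at postnatal day 21, from cortex and hippocampus. Every library, inputs included, came from Aldh1L1::RPL10a-eGFP mice, in which a fluorescently tagged ribosomal protein is made under an astrocyte promoter. The libraries form 4 groups of 3: cortex TRAP (RNA bound to the tagged ribosomes of whole tissue), cortex input (the RNA before that purification), PAP TRAP (the same purification from a synaptoneurosome layer, a gradient fraction with pinched-off synapses and the peripheral astrocyte processes around them), and synaptoneurosome input (that layer before purification). All were treated with cycloheximide at 1 ug/mL, which halts ribosomes on messages, and with the sodium channel blocker TTX at 1 mM. TRAP reads which messages sit on tagged ribosomes and not protein levels, and RNA that sticks to the beads is read with it. The labels give 1 protocol for all samples and do not say that replicates came from separate animals, so p-values measure only the spread between these libraries, which may be technical.

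Oxidative phosphorylation takes electrons from NADH and succinate, passes them through complexes I to IV to oxygen, and uses the proton gradient built on the way to drive complex V, which makes ATP. Complex II is encoded wholly in the nucleus and is also an enzyme of the citric acid cycle, while complexes III, IV and V combine nuclear subunits with a few encoded by mitochondrial DNA. The nuclear subunits are translated on cytosolic ribosomes, the kind that TRAP captures, and imported; the mtDNA-encoded subunits are translated inside the organelle on mitochondrial ribosomes, which carry no tag. Astrocytes are known for high glycolysis, and they also hold mitochondria, including in their fine processes.

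Most of these messages are short. The representative transcripts of the 33 genes had a median of 745 bases (405 to 3171), and 63.6% were no longer than 1000 bases, against 8.04% of the 13288 tested genes with a length, whose median was 2908 bases (GENCODE M21, GRCm38). Several have close copies elsewhere in the genome. Of the 50-base windows of the transcript, 66.0% were also found in other genes for Atp5g1, 53.0% for Cox7c, 50.5% for Atp5h, 43.2% for Uqcrb, 25.9% for Cox5b, 21.1% for Cox6c, 19.1% for Atp5o and 12.3% for Cox6a1. Reads from such windows can be assigned to the wrong locus or dropped, so the levels of these genes are uncertain. The coding sequences of Cox7c and Cox8a are shown because both encode short single-helix subunits of complex IV and lie near opposite ends of the levels described below. Capitals mark the 143 bases of Cox7c that lie only in windows shared with other genes, and Cox8a had none (GRCm38; Cox7c on chromosome 13, minus strand; Cox8a on chromosome 19, minus strand).
Cox7c: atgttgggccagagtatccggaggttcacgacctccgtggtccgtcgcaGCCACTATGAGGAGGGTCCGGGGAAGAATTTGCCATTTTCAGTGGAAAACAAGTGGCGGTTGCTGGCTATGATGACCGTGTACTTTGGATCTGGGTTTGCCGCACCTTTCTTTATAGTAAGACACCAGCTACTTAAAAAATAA
Cox8a: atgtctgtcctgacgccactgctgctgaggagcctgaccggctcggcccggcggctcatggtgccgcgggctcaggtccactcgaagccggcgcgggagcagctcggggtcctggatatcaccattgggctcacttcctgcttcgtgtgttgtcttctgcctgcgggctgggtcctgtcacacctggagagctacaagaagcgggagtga

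Gene counts per library ran from 4918113 to 17553985. Genes of the mitochondrial chromosome took 1.03% to 1.28% of them in cortex TRAP, 44.8% to 50.2% in cortex input, 35.6% to 47.6% in PAP TRAP and 83.8% to 91.9% in synaptoneurosome input, which left the synaptoneurosome inputs with the fewest nuclear counts, 1423296 to 2476076. All 8 astrocyte markers were higher in cortex TRAP than in cortex input (median log2 change 3.97) and all 8 neuron markers were lower (median -3.12), as the label of astrocyte ribosomes implies. PAP TRAP had 3 of 8 astrocyte markers higher and 2 of 8 neuron markers lower than synaptoneurosome input. Levels below are CPM, counts scaled to a common library size after TMM normalization, changes are log2 values ± SE, and a gene is called higher or lower where edgeR's quasi-likelihood F test gave a Benjamini-Hochberg adjusted p under 0.05 over all 13364 genes.

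On astrocyte ribosomes of whole tissue 26 of the 33 subunits rose. Set against cortex input, cortex TRAP had 26 called higher and none lower, against 15.9% of all genes tested called higher and 19.5% lower, and the median change of the 33 was 1.32, against 0.05 for all genes. Complex II gave 3 of 4 higher, complex III 6 of 9, complex IV 10 of 11 and complex V 7 of 9, with medians of 1.14, 1.65, 1.20 and 1.29. The 3 cortex TRAP libraries lay above all 3 cortex inputs for 31 genes, against 27.4% of all genes tested, and Sdha and Atp5g1 overlapped. None was lower at an unadjusted p under 0.05, and DESeq2 called 30 higher and none lower, against 16.7% of all genes higher and 19.8% lower by that tool. With offsets corrected for transcript length, 11 of 33 were called higher, against 16.7% of all genes. In bulk RNA of this kind, more cells of a type and more RNA per cell cannot be told apart. The count of higher genes fell to 17 without cortex input replicate 1 and to 16 without cortex input replicate 3, cortex TRAP replicate 1 or cortex TRAP replicate 3, and 14 of the 26 were called with any of the 12 libraries left out.

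**Figure D1:**
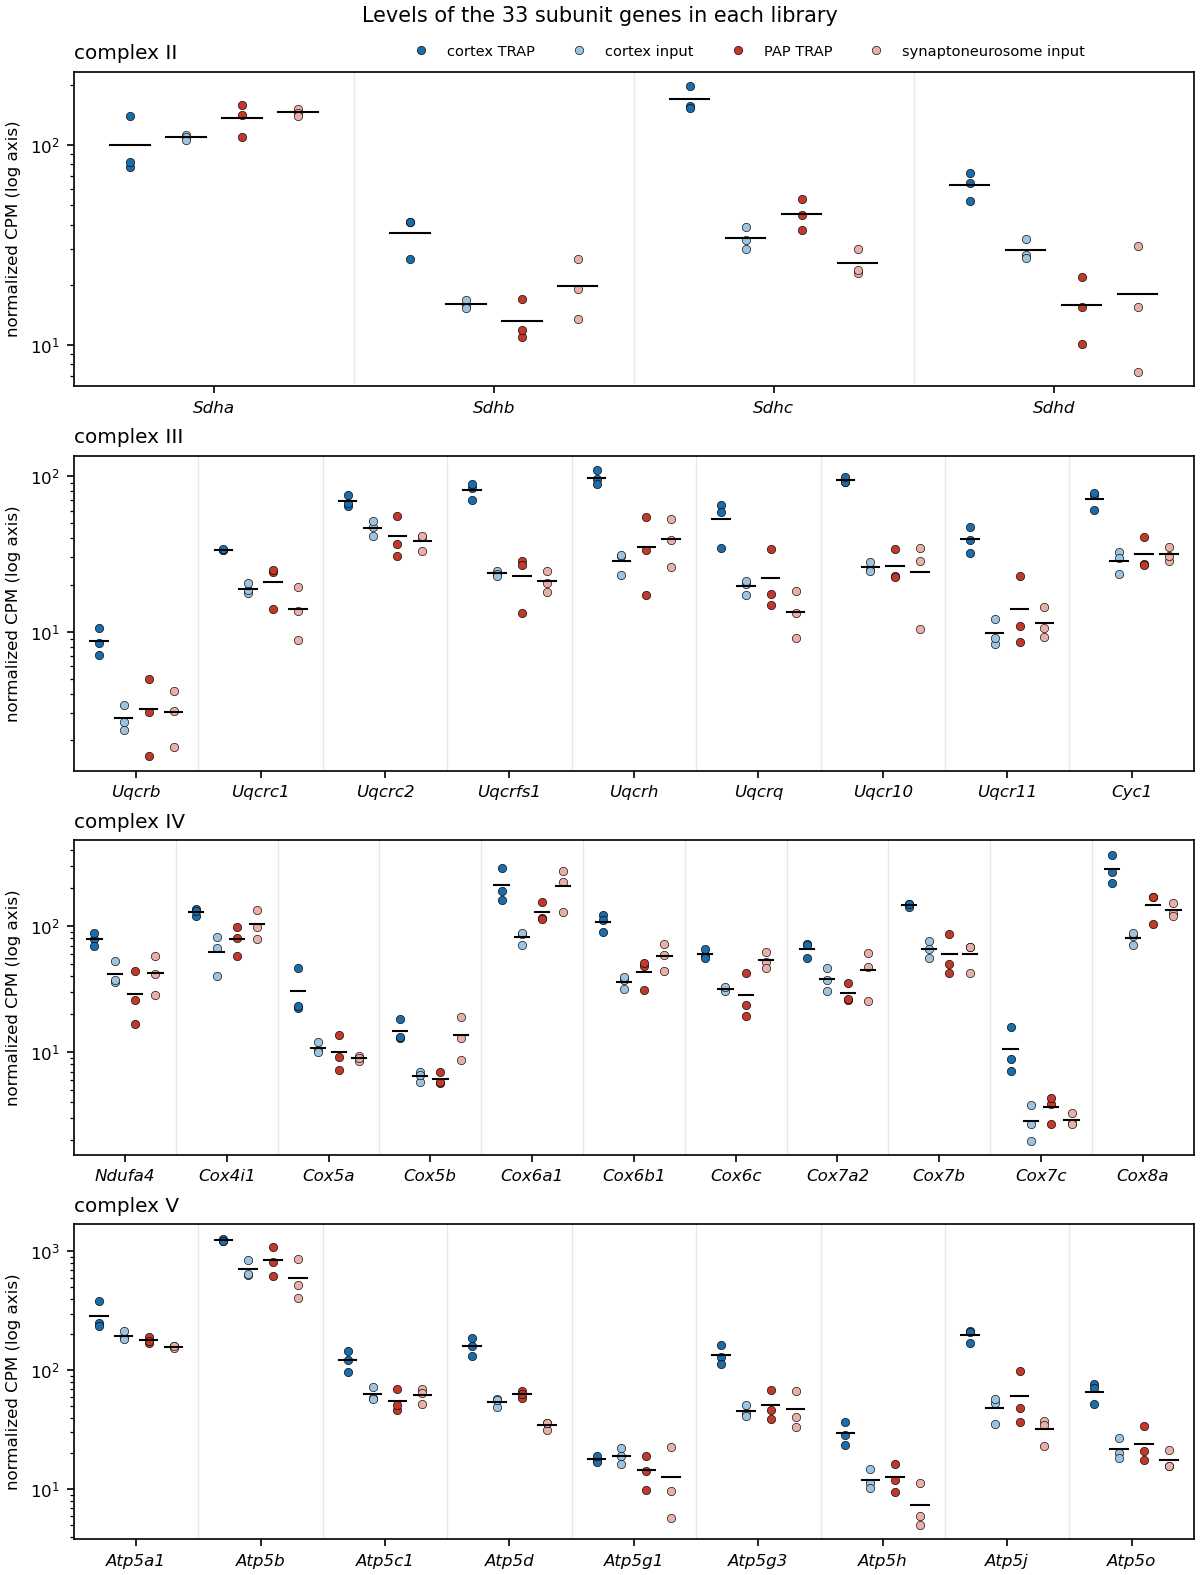
Normalized CPM (log axis) of the 33 genes in every library, 1 panel per complex; points are libraries and bars are group means, with cortex TRAP, cortex input, PAP TRAP and synaptoneurosome input from left to right for each gene. The dark blue cortex TRAP points stand above the light blue cortex input points for 31 of 33 genes, while PAP TRAP and synaptoneurosome input mostly overlap.

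In complex II 3 of 4 genes rose in cortex TRAP, and Sdha did not pass the test. Sdhc, which with Sdhd anchors the complex in the inner membrane and binds ubiquinone, had 198, 158 and 153 CPM in cortex TRAP against 33.6, 30.2 and 38.8 CPM in cortex input. It had 44.5, 53.9 and 37.6 CPM in PAP TRAP against 22.8, 23.6 and 30.3 CPM in synaptoneurosome input. Its enrichment in cortex TRAP was 2.31 ± 0.27 (edgeR adjusted p 1.47e-06), a 4.96-fold difference and the largest of the 33. Sdhd, the other anchor, had 72.8, 52.6 and 64.5 CPM in cortex TRAP against 28.3, 33.97 and 27.3 CPM in cortex input. It had 10.1, 21.7 and 15.5 CPM in PAP TRAP against 7.29, 31.1 and 15.4 CPM in synaptoneurosome input. In both anchors every cortex TRAP library was above every other library. Sdhd rose by 1.08 ± 0.41 in cortex TRAP, with an edgeR adjusted p of 0.0448 that became 0.202 without cortex input replicate 3. Sdhb, the iron-sulfur subunit, had 41.2, 26.8 and 41.2 CPM in cortex TRAP against 15.9, 16.8 and 15.2 CPM in cortex input, and 10.97, 11.8 and 16.9 CPM in PAP TRAP against 26.7, 19.1 and 13.5 CPM in synaptoneurosome input, a rise of 1.19 ± 0.36 in cortex TRAP (edgeR adjusted p 0.0143). Sdha, the flavoprotein that oxidises succinate, had 140.3, 77.5 and 81.9 CPM in cortex TRAP against 113, 109 and 106 CPM in cortex input. It had 159.5, 110.2 and 142 CPM in PAP TRAP against 152, 145 and 140.3 CPM in synaptoneurosome input. Its cortex TRAP libraries lay on both sides of the cortex inputs, at -0.13 ± 0.26 in cortex TRAP against cortex input, a 95% interval of -0.67 to 0.42 and an edgeR adjusted p of 0.741. Sdhc and Sdha are the longest transcripts of the 33 (3171 and 2900 bases), with coding lengths of 510 and 1995 bases.

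In complex III 6 of 9 genes rose in cortex TRAP, among them both electron carriers; the 2 core proteins and Uqcrb did not pass the test. Uqcrfs1, the Rieske iron-sulfur protein, had 83.5, 89.2 and 70.8 CPM in cortex TRAP against 24.7, 23.4 and 22.9 CPM in cortex input. It had 13.3, 28.4 and 26.9 CPM in PAP TRAP against 20.7, 17.9 and 24.5 CPM in synaptoneurosome input. The 3 cortex TRAP libraries were well apart from the other 9, at 1.78 ± 0.32 over input (edgeR adjusted p 0.000206). Cyc1, the c-type cytochrome of the complex, had 75.7, 60.95 and 78.3 CPM in cortex TRAP against 32.7, 29.6 and 23.6 CPM in cortex input. It had 27.2, 40.9 and 26.8 CPM in PAP TRAP against 35.2, 28.7 and 30.9 CPM in synaptoneurosome input. It rose by 1.32 ± 0.29 in cortex TRAP, and its PAP TRAP and synaptoneurosome input libraries lay in the same range. Uqcrh, the hinge protein that docks cytochrome c, had 109, 95.9 and 88.4 CPM in cortex TRAP against 30.8, 31.04 and 23.2 CPM in cortex input, and 33.5, 54.96 and 17.2 CPM in PAP TRAP against 52.9, 38.8 and 26.1 CPM in synaptoneurosome input. Uqcr10, a small transmembrane subunit, had 91.3, 91.2 and 98.9 CPM in cortex TRAP against 27.9, 25.1 and 24.7 CPM in cortex input, and 22.9, 33.9 and 22.5 CPM in PAP TRAP against 34.3, 28.4 and 10.4 CPM in synaptoneurosome input. Uqcr11, also small and transmembrane, had 32.00, 38.9 and 47.03 CPM in cortex TRAP against 12.02, 8.38 and 9.11 CPM in cortex input, and 10.9, 22.6 and 8.62 CPM in PAP TRAP against 10.6, 14.3 and 9.27 CPM in synaptoneurosome input. These 3 rose by 1.79 ± 0.37, 1.86 ± 0.36 and 2.00 ± 0.41 in cortex TRAP, in the order named, and were called whichever library was left out. Uqcrq, a small membrane subunit, had 65.5, 59.2 and 34.4 CPM in cortex TRAP against 20.4, 17.2 and 21.1 CPM in cortex input. It had 14.9, 34.2 and 17.5 CPM in PAP TRAP against 9.12, 13.1 and 18.1 CPM in synaptoneurosome input. Its rise of 1.44 ± 0.39 was called, and the lowest cortex TRAP library, 34.4 CPM, lay at the level of the highest PAP TRAP library. Uqcrc1 and Uqcrc2, the core proteins that face the matrix, were at 0.84 and 0.57 (edgeR adjusted p 0.0784 and 0.122). Uqcrc1 had 33.6, 33.3 and 34.2 CPM in cortex TRAP against 17.6, 18.5 and 20.5 CPM in cortex input, and 24.3, 24.8 and 13.9 CPM in PAP TRAP against 8.81, 19.4 and 13.5 CPM in synaptoneurosome input. Uqcrc2 had 75.6, 64.5 and 67.2 CPM in cortex TRAP against 46.9, 41.1 and 51.4 CPM in cortex input, and 30.9, 36.6 and 55.6 CPM in PAP TRAP against 33.1, 40.9 and 41.1 CPM in synaptoneurosome input. Neither core gene had an overlap between cortex TRAP and cortex input, and neither was called. Uqcrb, a ubiquinone-binding subunit, had 8.50, 10.6 and 7.05 CPM in cortex TRAP against 3.38, 2.33 and 2.63 CPM in cortex input, and 1.58, 4.96 and 3.03 CPM in PAP TRAP against 1.82, 4.18 and 3.09 CPM in synaptoneurosome input, a change of 1.65 ± 0.66 with a wide error (edgeR adjusted p 0.0616).

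Complex IV, the largest list with 11 genes, had 10 called higher in cortex TRAP. With offsets corrected for transcript length, Cox8a was the only gene of complex IV called there. Cox8a, a small subunit with a single membrane helix, had 219, 267 and 368 CPM in cortex TRAP against 83.96, 70.4 and 87.8 CPM in cortex input. It had 103, 171 and 168 CPM in PAP TRAP against 126, 151 and 121 CPM in synaptoneurosome input. Its enrichment was 1.82 ± 0.27 (edgeR adjusted p 2.7e-05), and every PAP TRAP and synaptoneurosome input library was above every cortex input library. Cox6b1, which faces the intermembrane space and joins the oxidase monomers, had 122, 88.8 and 111 CPM in cortex TRAP against 37.2, 31.6 and 39.1 CPM in cortex input, and 31.2, 48.4 and 50.8 CPM in PAP TRAP against 71.4, 58.8 and 44.2 CPM in synaptoneurosome input. Cox6a1, the broadly expressed form of a subunit at the same dimer interface, had 289, 159 and 190.0 CPM in cortex TRAP against 87.01, 70.7 and 87.97 CPM in cortex input, and 116, 156 and 114 CPM in PAP TRAP against 225, 271 and 129 CPM in synaptoneurosome input. These genes rose by 1.58 ± 0.29 and 1.38 ± 0.30 in cortex TRAP, and for both the synaptoneurosome inputs stood above the cortex inputs. Cox7b had 149, 142 and 150.3 CPM in cortex TRAP against 75.5, 56.03 and 66.1 CPM in cortex input, and 42.1, 87.02 and 49.96 CPM in PAP TRAP against 67.8, 68.7 and 42.5 CPM in synaptoneurosome input, a rise of 1.16 ± 0.29. Cox4i1, the regulatory subunit that binds ATP, had 137, 119 and 131 CPM in cortex TRAP against 81.8, 66.7 and 39.8 CPM in cortex input, and 57.4, 98.3 and 80.9 CPM in PAP TRAP against 98.8, 133 and 79.3 CPM in synaptoneurosome input, a rise of 1.04 ± 0.30. All 3 cortex TRAP libraries were above the cortex inputs for both genes, and for Cox4i1 they overlapped with synaptoneurosome input. Cox5a, a matrix-side subunit, had 22.2, 23.1 and 46.3 CPM in cortex TRAP against 10.4, 10.1 and 12.04 CPM in cortex input. It had 7.20, 13.6 and 9.09 CPM in PAP TRAP against 8.51, 9.26 and 9.07 CPM in synaptoneurosome input. Cortex TRAP replicate 3 stood far above the other cortex TRAP libraries; with it the change was 1.50 ± 0.41 (edgeR adjusted p 0.00793), and without it 0.91 (edgeR adjusted p 0.144). Cox6c had 58.8, 55.6 and 66.3 CPM in cortex TRAP against 32.5, 30.8 and 32.6 CPM in cortex input, and 23.8, 42.4 and 19.2 CPM in PAP TRAP against 51.7, 62.7 and 46.3 CPM in synaptoneurosome input, with a rise of 0.92 ± 0.31. Ndufa4, long counted with complex I and later assigned to complex IV, had 78.4, 69.1 and 87.7 CPM in cortex TRAP against 35.7, 52.6 and 36.98 CPM in cortex input, and 26.1, 44.3 and 16.6 CPM in PAP TRAP against 28.3, 57.3 and 41.3 CPM in synaptoneurosome input, with a rise of 0.91 ± 0.35. Cox5b, a zinc-binding matrix subunit, had 18.2, 12.9 and 13.3 CPM in cortex TRAP against 6.92, 5.85 and 6.60 CPM in cortex input, and 5.70, 7.03 and 5.83 CPM in PAP TRAP against 13.1, 19.1 and 8.69 CPM in synaptoneurosome input, with a rise of 1.20 ± 0.45. The last 3 calls were among the least firm: leaving out 1 library raised the highest edgeR adjusted p to 0.14 for Cox6c, 0.26 for Ndufa4 and 0.228 for Cox5b. Cox7a2 was at 0.80 ± 0.32 (edgeR adjusted p 0.0598), the only gene of complex IV not called, with 72.4, 55.9 and 70.4 CPM in cortex TRAP against 46.2, 30.4 and 37.6 CPM in cortex input, and 25.9, 35.3 and 26.6 CPM in PAP TRAP against 47.7, 61.5 and 25.7 CPM in synaptoneurosome input. Cox7c, near the bottom of the levels, had 7.08, 8.79 and 15.9 CPM in cortex TRAP against 3.82, 1.99 and 2.69 CPM in cortex input, and 2.72, 3.88 and 4.35 CPM in PAP TRAP against 2.73, 3.29 and 2.70 CPM in synaptoneurosome input. It was called at 1.90 ± 0.62 with an edgeR adjusted p that ran up to 0.183 with 1 library left out.

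In complex V 7 of 9 genes rose in cortex TRAP, with Atp5a1 and Atp5g1 not called. Atp5d, the delta subunit of the central stalk, had 131, 159 and 188 CPM in cortex TRAP against 56.99, 49.4 and 56.4 CPM in cortex input. It had 58.01, 67.4 and 63.3 CPM in PAP TRAP against 31.3, 36.1 and 36.3 CPM in synaptoneurosome input. Its rise of 1.55 ± 0.25 had an edgeR adjusted p of 5.22e-05, and the 4 groups did not overlap for it in any of the 4 comparisons between groups. Atp5c1, the gamma subunit that turns within the catalytic head, had 146, 123 and 96.5 CPM in cortex TRAP against 72.4, 58.8 and 57.8 CPM in cortex input, and 45.99, 70.2 and 50.7 CPM in PAP TRAP against 69.6, 64.5 and 52.1 CPM in synaptoneurosome input, a rise of 0.95 ± 0.27. Its cortex TRAP libraries were above the 9 others, which overlapped among themselves. Atp5j, a coupling factor of the peripheral stalk, had 214, 169 and 208 CPM in cortex TRAP against 53.2, 35.2 and 57.3 CPM in cortex input, and 36.9, 98.02 and 48.4 CPM in PAP TRAP against 37.4, 34.9 and 23.2 CPM in synaptoneurosome input. Atp5o, which ties the stalk to the head and is known as OSCP, had 76.4, 51.6 and 70.8 CPM in cortex TRAP against 26.8, 20.1 and 18.2 CPM in cortex input, and 21.1, 33.8 and 17.6 CPM in PAP TRAP against 15.8, 21.2 and 15.6 CPM in synaptoneurosome input. Atp5h, the stalk subunit d, had 28.4, 23.6 and 36.7 CPM in cortex TRAP against 14.7, 11.3 and 10.2 CPM in cortex input, and 9.57, 16.2 and 12.04 CPM in PAP TRAP against 11.2, 5.97 and 5.02 CPM in synaptoneurosome input. The stalk genes rose by 2.02 ± 0.34, 1.61 ± 0.33 and 1.29 ± 0.41 in the order named, and the call for Atp5h was lost without any 1 of 5 libraries. Atp5b, the catalytic beta subunit, had 1274, 1213 and 1216 CPM in cortex TRAP against 629, 648 and 848 CPM in cortex input, and 617, 810.3 and 1084 CPM in PAP TRAP against 405, 517 and 866 CPM in synaptoneurosome input, a rise of 0.80 ± 0.27 (edgeR adjusted p 0.028). Atp5a1, the alpha subunit of the same head, was at 0.56 ± 0.23 (edgeR adjusted p 0.0638) with 379, 250.4 and 237 CPM in cortex TRAP against 189.9, 213 and 183 CPM in cortex input, and 169, 189 and 176 CPM in PAP TRAP against 160.4, 154 and 159 CPM in synaptoneurosome input. Cortex TRAP replicate 1 was the highest of the 12 libraries for Atp5a1. Atp5g1 and Atp5g3 encode the same mature c-ring protein with different import presequences. Atp5g3 had 163, 128 and 113 CPM in cortex TRAP against 43.5, 51.5 and 41.6 CPM in cortex input, and 46.4, 68.8 and 38.7 CPM in PAP TRAP against 40.1, 67.5 and 33.6 CPM in synaptoneurosome input, a rise of 1.56 ± 0.31 (edgeR adjusted p 0.000513). Atp5g1 had 17.6, 16.9 and 19.1 CPM in cortex TRAP against 16.4, 19.01 and 22.2 CPM in cortex input, and 14.3, 18.9 and 9.95 CPM in PAP TRAP against 5.77, 22.7 and 9.65 CPM in synaptoneurosome input, a change of -0.10 ± 0.44 with a 95% interval of -1.03 to 0.83. The 2 c-ring genes thus had separate values, and the difference between them was not tested; Atp5g1 shares most of its windows with other loci and Atp5g3 shares 0.

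Per kilobase of transcript the order of the genes was alike at its ends in all groups. Atp5b led with 644 ± 17.9 CPM per kilobase in cortex TRAP and 370 ± 63.3 in cortex input (SD, n = 3 each), and Cox8a and Cox6a1 followed with 517 ± 138 and 372 ± 118 in cortex TRAP. In PAP TRAP these were 437 ± 122 for Atp5b, 268 ± 70.2 for Cox8a and 225 ± 41.4 for Cox6a1. The library ranges of Atp5b and Cox8a overlapped in cortex TRAP. Those of Cox8a and Cox6a1 overlapped in cortex TRAP and in PAP TRAP, so these orders do not hold beyond the spread. In synaptoneurosome input Cox6a1 had the highest mean, 365 ± 127, then Atp5b with 311 ± 126 and Cox8a with 241 ± 29.4. The ranges of Atp5b and Cox6a1 over the libraries overlapped there, so their order does not hold beyond the spread. Uqcrb had the lowest mean in cortex TRAP, cortex input and PAP TRAP, at 16.3 ± 3.35, 5.19 ± 1.01 and 5.96 ± 3.17 CPM per kilobase. Cox7c had the lowest mean in synaptoneurosome input, 5.38 ± 0.606. The ranges of Uqcrb and Cox7c overlapped in all 4 groups, so their order does not hold beyond the spread, and both genes share many windows with other loci.

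No subunit passed the test in the peripheral processes against the fraction they were purified from. None of the 33 was called in either direction in PAP TRAP against synaptoneurosome input, against 3.0% of all genes called higher and 1.53% lower, and the median change was 0.12, against 0.06 for all genes. At an unadjusted p under 0.05 edgeR gave 3 higher and 3 lower, against 11.9% and 8.22% of all genes. DESeq2 called 2 higher (Atp5d and Sdhc) and 2 lower (Cox6c and Cox5b), against 5.54% and 4.9% of all genes. These counts are near the shares over all genes. The smallest adjusted p was that of Atp5d, at 0.86 ± 0.25 (0.0507 by edgeR), where 58.0, 67.4 and 63.3 CPM in PAP TRAP stood clear of 31.3, 36.1 and 36.3 CPM in synaptoneurosome input. Sdhc was at 0.82 ± 0.26 (edgeR adjusted p 0.0824) and also without overlap, and Uqcrq, first by p in complex III, was at 0.71 ± 0.39 (edgeR adjusted p 0.326). Cox6c lay the other way at -0.91 ± 0.31 (edgeR adjusted p 0.103), with Cox5b at -1.13 ± 0.46. In all, 5 genes had no overlap between the groups: Sdhc, Atp5a1 and Atp5d above, Cox5b and Cox6c below. Of all genes tested, 12.2% lay above and 9.39% below without overlap, so 3 and 2 of 33 are no more than the general share. By complex the medians were -0.13, 0.12, -0.42 and 0.46 for II, III, IV and V, with 4 of 11 genes above 0 in complex IV and 8 of 9 in complex V. Astrocyte markers took 6.76% ± 2.34 of nuclear counts in PAP TRAP and 4.45% ± 0.43 in synaptoneurosome input (SD, n = 3 each). In cortex TRAP they took 8.40% ± 1.60, and in cortex input 0.824% ± 0.0445. Slc1a2 alone held most of these marker counts in every group. In PAP TRAP it had 230386, 480860 and 363460 counts, beside 18074, 41679 and 32455 for Glul, the next highest. These shares thus describe mainly 1 message, and their part in the values was not tested.

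**Figure D2:**
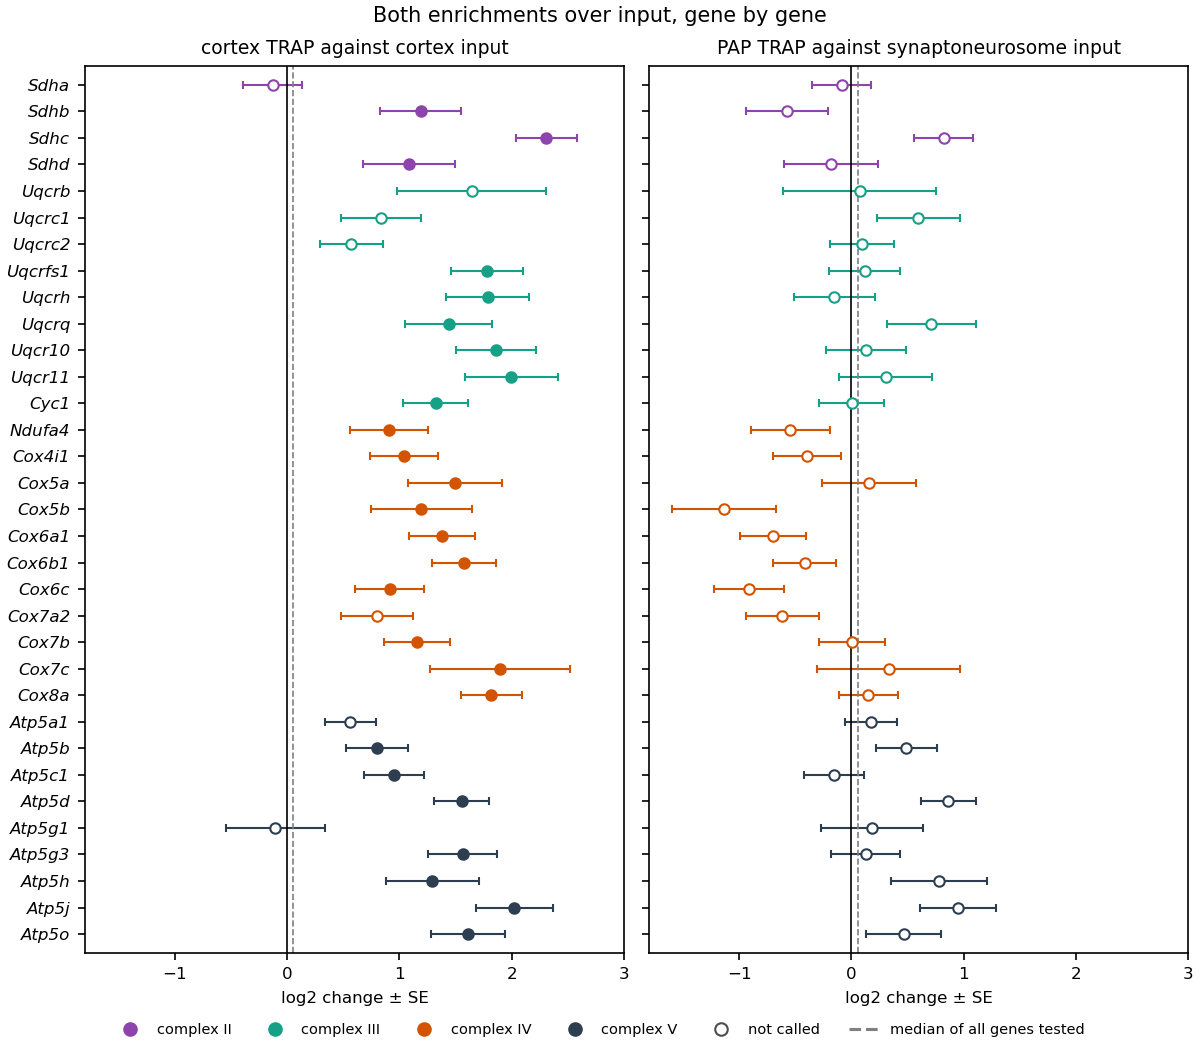
Log2 change ± SE of each gene over its input, cortex TRAP against cortex input on the left and PAP TRAP against synaptoneurosome input on the right; filled points were called by edgeR and the dashed line is the median of all genes tested. On the left 26 of 33 points are filled and lie to the right of 0, and on the right all points are open and scatter between -1.13 and 0.95.

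For 17 genes the change over input was lower in the processes than in whole tissue. Some of them, such as Cox6c, had a mean below synaptoneurosome input in PAP TRAP, and others, such as Sdhc, a mean above it. The difference between both enrichments, an interaction term over all 12 libraries, was called negative for 17 of 33 genes and positive for none, against 7.32% of all genes called negative and 12.9% positive. DESeq2 called 19 negative and none positive, against 10.3% and 14.2% of all genes, and by edgeR none was positive at an unadjusted p under 0.05. The median difference was -1.42, against 0.03 for all genes. By complex, 2 of 4 genes were called in complex II (Sdhb and Sdhc), 5 of 9 in complex III (Uqcrfs1, Uqcrh, Uqcr10, Uqcr11 and Cyc1), 8 of 11 in complex IV (Ndufa4, Cox4i1, Cox5b, Cox6a1, Cox6b1, Cox6c, Cox7a2 and Cox8a) and 2 of 9 in complex V (Atp5c1 and Atp5g3). The smallest p in each complex belonged to Sdhc (-1.49 ± 0.37, edgeR adjusted p 0.00689), Uqcrh (-1.94 ± 0.51, 0.0108), Cox6a1 (-2.07 ± 0.42, 0.00134) and Atp5g3 (-1.44 ± 0.43, 0.0233). Only Sdhc, Cox6a1, Cox6b1, Cox6c and Cox8a were called whichever of the 12 libraries was left out. The count of 17 became 9, 6, 8, 9, 9, 8 and 11 without cortex input replicate 1, cortex input replicate 3, cortex TRAP replicate 1, cortex TRAP replicate 3, synaptoneurosome input replicate 2, PAP TRAP replicate 1 and PAP TRAP replicate 3, in that order. With offsets corrected for transcript length, 5 of 33 were called negative, against 8.66% of all genes. In the same interaction all 8 astrocyte markers were called negative (median -3.12), and 7 of 8 neuron markers (median 2.59), 4 of 6 oligodendrocyte markers, 1 of 6 microglia markers and none of 3 tested endothelial markers were called positive. Astrocyte markers took 3.96% to 4.77% of nuclear counts in synaptoneurosome input and 0.773% to 0.857% in cortex input, mostly from Slc1a2. Neuron markers took 0.978% to 1.38% in synaptoneurosome input and 1.63% to 1.83% in cortex input. The part of these markers in the negative subunit differences was not tested.

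Set directly against cortex TRAP, most subunits were lower in PAP TRAP. There 25 of 33 were called lower and none higher, against 14.6% of all genes called lower and 19.3% higher, with a median of -1.30, against -0.28 for all genes. None was higher at an unadjusted p under 0.05, and DESeq2 called 27 lower and none higher, against 16.8% of all genes lower and 20.4% higher. By complex 3 of 4, 7 of 9, 8 of 11 and 7 of 9 were lower, and 31 genes lay below without overlap, against 26.1% of all genes tested, Sdha and Atp5g1 being the exceptions. With offsets corrected for transcript length, 2 of 33 were called lower, against 12.8% of all genes. Cox8a was then at 0.18 ± 0.28, not called. This comparison uses the same cortex TRAP libraries as the enrichment above, so the 2 sets of calls are not independent. The smallest p in each complex belonged to Sdhc (-1.90 ± 0.26, edgeR adjusted p 1.59e-05), Uqcrfs1 (-1.83 ± 0.32, 0.000205), Cox6b1 (-1.30 ± 0.28, 0.00156) and Atp5d (-1.34 ± 0.24, 0.000298). The largest fall was that of Sdhd, -2.00 ± 0.42. Sdha was the only gene with a positive value, 0.46 ± 0.26 (edgeR adjusted p 0.182). The genes not called were Sdha, Uqcrb, Uqcrc1, Cox4i1, Cox6a1, Cox7c, Atp5b and Atp5g1, and the abundant Atp5b was at -0.56 ± 0.27 (edgeR adjusted p 0.12). Markers of other cells were higher in PAP TRAP than in cortex TRAP: 7 of 8 neuron, 4 of 6 oligodendrocyte, 5 of 6 microglia and 2 of 3 tested endothelial markers. Neuron markers took 0.374% to 0.539% of nuclear counts in PAP TRAP and 0.186% to 0.292% in cortex TRAP. Oligodendrocyte markers took 0.779% to 1.03% in PAP TRAP and 0.0581% to 0.0860% in cortex TRAP. Mbp alone had 28583, 30813 and 44180 counts in PAP TRAP, most of that share, and 510, 913 and 657 in cortex TRAP. Microglia markers took 0.0230% to 0.0335% in PAP TRAP and 0.00203% to 0.00296% in cortex TRAP. No marker of these 3 lists was at 0 in every library of either group. Endothelial markers took 0.00102% to 0.00247% in PAP TRAP and 2.06e-05% to 0.000167% in cortex TRAP, with 1 of 6 at 0 in every PAP TRAP library and 2 of 6 in every cortex TRAP library. Astrocyte markers took 4.75% to 9.32% in PAP TRAP and 6.68% to 9.83% in cortex TRAP, with 7 of 8 called lower. Slc1a2 held most of the counts behind both shares. The part of these markers in the lower subunit values was not tested.

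Before purification, 1 subunit differed between the fraction and the tissue. In synaptoneurosome input against cortex input 1 of 33 was called higher and none lower, against 7.26% of all genes called higher and 2.07% lower, and the median was -0.02, against -0.14 for all genes. At an unadjusted p under 0.05 there were 6 higher and 1 lower, against 13.7% and 10.8% of all genes, and DESeq2 called 5 higher and none lower, against 12% and 4.2%. The called gene was Cox6a1, at 1.35 ± 0.30 (edgeR adjusted p 0.00623), with 225, 271 and 129 CPM in synaptoneurosome input against 87.0, 70.7 and 88.0 CPM in cortex input. Without cortex input replicate 2 its adjusted p was 0.0502. Complex IV had a median of 0.69, against -0.06, -0.10 and -0.31 for complexes II, III and V; no test was made of that difference. Beside it, 7 of 8 astrocyte markers (median 1.73), 5 of 6 microglia markers (median 3.07), 2 of 6 oligodendrocyte markers, 1 of 8 neuron markers and none of 3 tested endothelial markers were called higher in synaptoneurosome input, and 1 neuron marker was lower. Microglia markers took 0.0530% to 0.118% of nuclear counts in synaptoneurosome input and 0.0106% to 0.0139% in cortex input, and oligodendrocyte markers 0.529% to 0.724% in synaptoneurosome input and 0.397% to 0.424% in cortex input. The part of these markers in the subunit values was not tested. Cox5b, Cox6b1, Cox6c and Cox8a lay at 1.07, 0.69, 0.74 and 0.72 with no overlap between the groups, and were not called by this fit; in all 6 subunits lay above and 4 below without overlap, against 16.4% and 20.1% of all genes. In the other direction Atp5d was at -0.65 ± 0.25 (edgeR adjusted p 0.106), Sdhd at -0.74 ± 0.42 and Uqcrq at -0.53 ± 0.39, the smallest p of complexes V, II and III.

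Transcript length moved with these changes. Over all 13288 genes with a length, the Spearman correlation across genes between length and change was -0.29 in cortex TRAP against cortex input and 0.421 in PAP TRAP against cortex TRAP (genes are not independent replicates, and all share the same 12 libraries), and over the 33 genes it was -0.402 and 0.202. In the band over 500 and up to 750 bases, which holds 14 of the 33, their median in cortex TRAP against cortex input was 1.44, against 1.17 for 364 other genes. For PAP TRAP against cortex TRAP the medians in that band were -1.27 and -1.45. Among transcripts over 1000 and up to 2000 bases, 9 subunit genes had medians of 1.08 and -1.18 in those comparisons, against 0.63 and -0.99 for 2782 other genes. The 3 subunit genes up to 500 bases and the 4 over 750 and up to 1000 had medians of 1.86 and 1.58 in cortex TRAP against cortex input, against 1.25 and 1.09 for other genes of those lengths. In PAP TRAP against cortex TRAP these subunit genes had medians of -1.48 and -1.40, against -1.21 and -1.39. The 3 subunit genes over 2000 and up to 4000 bases had 0.56 and -0.70 in the 2 comparisons, against 0.03 and -0.33.

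**Figure D3:**
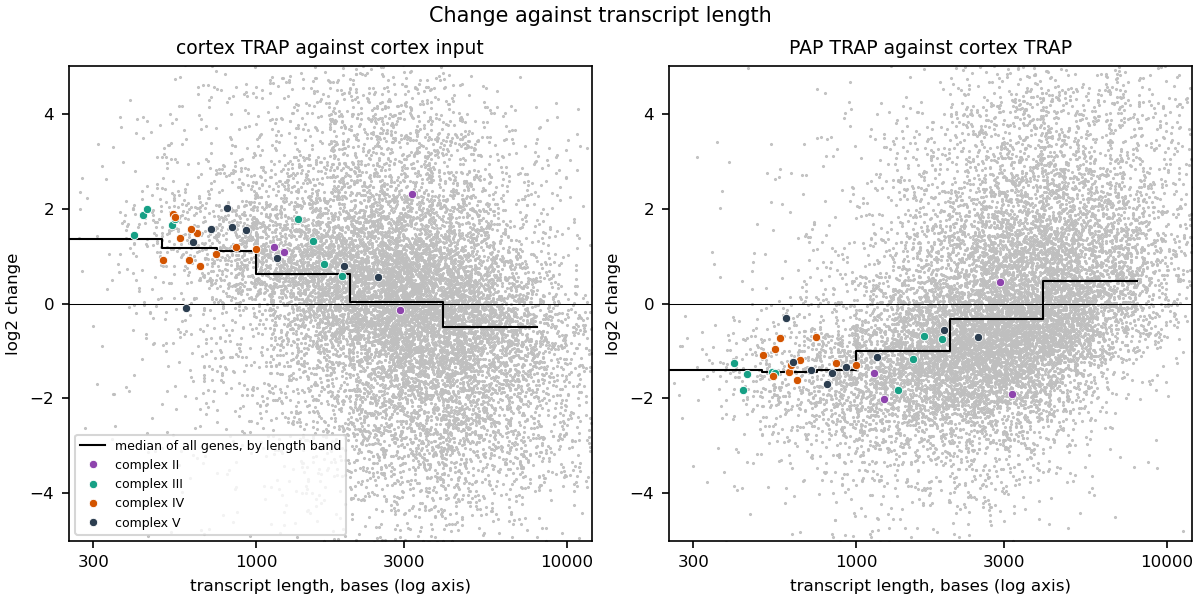
Log2 change against transcript length (log axis, in bases) for all genes tested (grey; points beyond the axes are not drawn), with the median by length band as a black line and the subunit genes in colour, for cortex TRAP against cortex input on the left and PAP TRAP against cortex TRAP on the right. The black line falls with length on the left and climbs on the right, and most coloured points lie at the short end. On the left the median of the subunits was above that of other genes in every length band that holds subunits. On the right it lay above only in the band over 500 and up to 750 bases. It lay below in the other bands that hold subunits, barely so over 750 and up to 1000 bases.

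With offsets corrected for transcript length in the same edgeR fit, fewer subunits passed the test. In cortex TRAP against cortex input 11 of 33 were called higher, against 16.7% of all genes, with a median of 0.58: Sdhc, Uqcrfs1, Uqcrh, Uqcr10, Uqcr11, Cyc1, Cox8a, Atp5d, Atp5g3, Atp5j and Atp5o. Sdhc was at 2.45 ± 0.27, while Uqcrfs1 was at 1.29 ± 0.32, Atp5j at 1.27 ± 0.31 and Cox8a at 0.99 ± 0.28. In PAP TRAP against cortex TRAP 2 were called lower, against 12.8% of all genes, namely Sdhc (-1.94 ± 0.26, edgeR adjusted p 1.74e-05) and Uqcrfs1 (-0.94 ± 0.32, 0.0339), and the median was -0.30. The difference between both enrichments was called negative for 5, against 8.66% of all genes: Sdhc, Uqcrh, Cox6a1, Cox6b1 and Cox6c, with a median over the 33 of -0.84. In PAP TRAP against synaptoneurosome input Cox6c was called lower (-1.18 ± 0.28, edgeR adjusted p 0.022), against 2.05% of all genes. In synaptoneurosome input against cortex input the correction worked the other way: 6 of 33 were called higher, against 8.74% of all genes, and all 6 were of complex IV, namely Cox4i1 (1.26), Cox5b (1.58), Cox6a1 (1.83), Cox6b1 (1.19), Cox6c (1.20) and Cox8a (1.20). The same 6 genes were called with lengths of the longest transcript or of the coding sequence, and Sdhc was called with all 3 kinds of length in cortex TRAP against cortex input and in PAP TRAP against cortex TRAP.

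**Figure D4:**
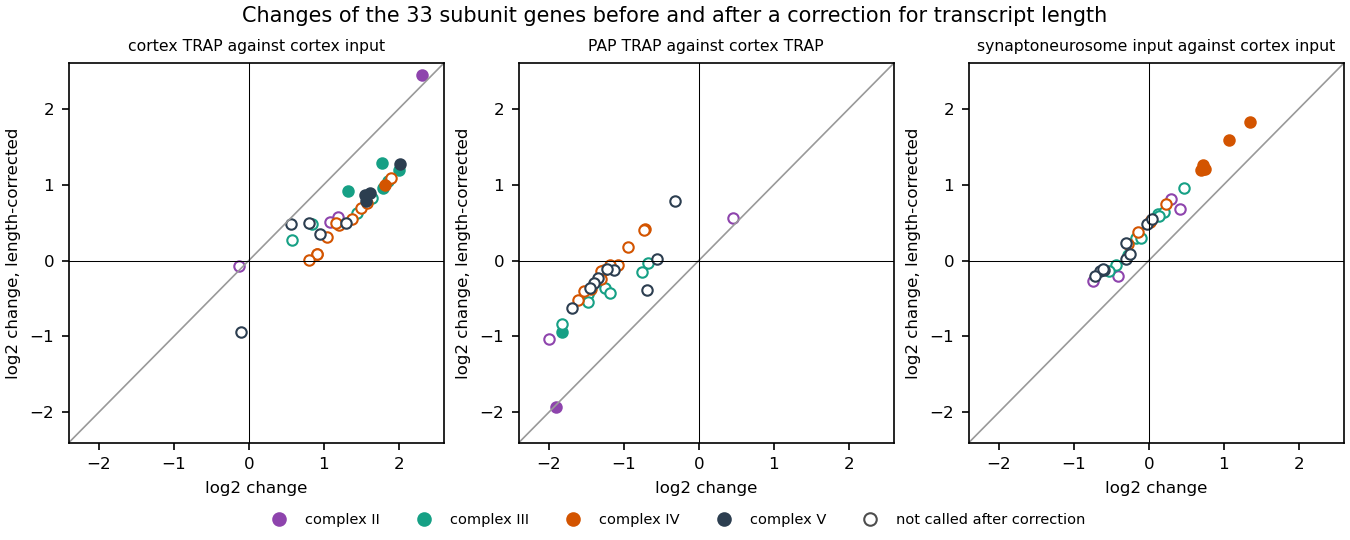
Log2 change of each subunit gene before (horizontal axis) and after (vertical axis) a correction for transcript length, with cortex TRAP over cortex input on the left, PAP TRAP over cortex TRAP in the middle and synaptoneurosome input over cortex input on the right; filled points were called after the correction and the grey line marks equal values. The filled counts are 11, 2 and 6, the Sdhc point lies near the grey line on the left and in the middle, and the 6 filled points on the right are all of complex IV.

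As a share, the 33 genes held 1.03% ± 0.0326 of nuclear counts in cortex TRAP and 0.570% ± 0.0125 in cortex input, and 0.453% ± 0.0688 in PAP TRAP and 0.473% ± 0.0481 in synaptoneurosome input (SD, n = 3 each). The ranges were 0.990% to 1.05% and 0.556% to 0.578% for the first pair and 0.380% to 0.516% and 0.445% to 0.528% for the second pair, so the first pair was apart and the second overlapped. The mtDNA-encoded partners in complexes III to V moved in the opposite direction in cortex TRAP. mt-Co1, the catalytic subunit of complex IV, had 37.2, 49.4 and 46.01 CPM in cortex TRAP against 2940, 4302 and 4752 CPM in cortex input, and 22747, 15060 and 15948 CPM in PAP TRAP against 48427, 49713 and 42211 CPM in synaptoneurosome input. mt-Cytb, the cytochrome b of complex III, had 36.1, 51.4 and 54.98 CPM in cortex TRAP against 3624, 3854 and 4459 CPM in cortex input, and 13090, 7565 and 5418 CPM in PAP TRAP against 86300, 64856 and 38434 CPM in synaptoneurosome input. All 5 mtDNA-encoded genes that passed the filter, of 6, were called lower in cortex TRAP than in cortex input, and all 5 were higher in PAP TRAP than in cortex TRAP. For mt-Co1 these changes were -6.50 ± 0.29 and 8.66 ± 0.32. In PAP TRAP against synaptoneurosome input mt-Co1, mt-Cytb and mt-Atp6 were called lower of the 5, mt-Co1 at -1.38 ± 0.23 and mt-Cytb at -2.86 ± 0.33 (edgeR adjusted p 0.00235 and 0.000145), on the TMM scale. As a share of all gene counts mt-Co1 turned, with 2.07% ± 0.317 in PAP TRAP and 1.17% ± 0.243 in synaptoneurosome input, without overlap. The share of mt-Cytb was 0.993% ± 0.374 in PAP TRAP and 1.53% ± 0.442 in synaptoneurosome input (SD, n = 3 each), with ranges that overlapped, so the direction of the means depends on the scale for mt-Co1 and not for mt-Cytb. mt-Co2 had no count in any cortex TRAP library and 14 to 24 counts in the cortex inputs. The cortex inputs also had only 7 to 14 counts of mt-Co3, 39 to 55 of mt-Atp6 and 1 to 2 of mt-Atp8. They had 57987 to 72938 of mt-Cytb and 53082 to 77731 of mt-Co1. These 2 genes thus held nearly all mtDNA-encoded counts of the list, and the other calls among the 5 rest on low counts.

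**Figure D5:**
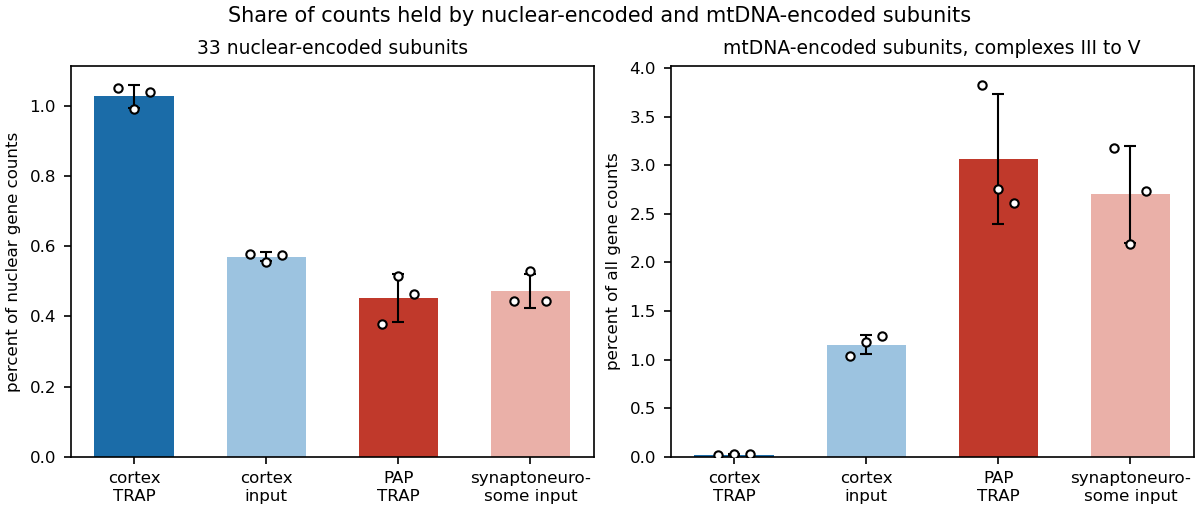
Share of nuclear gene counts held by the 33 nuclear-encoded subunits (left) and share of all gene counts held by the 6 mtDNA-encoded subunits of complexes III to V (right), in percent; bars are group means, error bars SD, and points the 3 libraries of each group. The left panel is highest in cortex TRAP (1.03%) and the right panel is lowest there (0.0218%). Nearly all of the right panel comes from mt-Cytb and mt-Co1.

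The rest of the pathway gave the following counts, beside these shares of all genes tested. In cortex TRAP against cortex input 15.9% were called higher and 19.5% lower. In PAP TRAP against cortex TRAP the shares were 19.3% and 14.6%, and in PAP TRAP against synaptoneurosome input 3.0% and 1.53%. Complex I, which feeds electrons from NADH into the chain, had 18 of 36 subunits higher in cortex TRAP than in cortex input (median 1.27) and none lower, led by Ndufb11 (2.52 ± 0.42) and Ndufc2 (2.02 ± 0.34). Against cortex TRAP, 19 of 36 were lower and none higher in PAP TRAP, led by Ndufa12 (-2.06 ± 0.38) and Ndufa7 (-2.19 ± 0.43). Against synaptoneurosome input, 1 of 36 was lower in PAP TRAP, Ndufb9, at -1.74 ± 0.35 (edgeR adjusted p 0.00785). That count is near the share over all genes. The difference between both enrichments was called negative for 10 of 36 and positive for none, against 7.32% and 12.9% of all genes. Its median over complex I was -1.34. Of 9 other broadly expressed ATP synthase and oxidase subunits tested, 5 were higher in cortex TRAP, led by Mp68 (1.93 ± 0.37) and Atp5j2 (1.58 ± 0.38), and 7 were lower in PAP TRAP than in cortex TRAP, led by Atp5j2 (-2.25 ± 0.39) and Atp5k (-2.42 ± 0.43). Atpif1, the inhibitor of the ATP synthase, was lower in PAP TRAP than in synaptoneurosome input, -1.46 ± 0.38 (edgeR adjusted p 0.034). The tissue-specific isoforms of complex IV were near the floor of detection: of 4 tested, Cox7a1 was called higher in cortex TRAP with 1.72 ± 1.07 CPM, against 0.0775 ± 0.0836 CPM in cortex input.

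Assembly factors gave few calls in cortex TRAP, though their median change was 0.84, against 0.05 for all genes, with 25 of 30 above 0. Of 30 tested, 5 were higher in cortex TRAP than in cortex input at an unadjusted p under 0.05, against 20.3% of all genes. By edgeR's adjusted p none was higher and 1 was lower, against 15.9% and 19.5%. That gene, Ttc19, which is known for assembly of complex III, had a change of -1.11 ± 0.32, and it was the 1 gene called higher in PAP TRAP than in cortex TRAP (1.06 ± 0.32). In that comparison 6 were lower, against 14.6% of all genes, led by Cox10, a haem A synthesis enzyme (-2.04 ± 0.48), and Tmem70, which assists the ATP synthase (-2.68 ± 0.67). Lyrm7, which guides insertion of the Rieske protein, was called higher in PAP TRAP than in synaptoneurosome input (2.87 ± 0.66) and lower in synaptoneurosome input than in cortex input (-3.84 ± 0.67). The synaptoneurosome inputs had only 3, 4 and 6 counts of Lyrm7, so both calls rest on the same values near the floor. Of 7 genes for cytochrome c and for carriers and channels of the mitochondrial membranes, 3 were higher in cortex TRAP, with the ADP/ATP carrier Slc25a5 at 1.86 ± 0.30 and the phosphate carrier Slc25a3 at 0.86 ± 0.27. Of the 7, 3 were lower in PAP TRAP than in cortex TRAP, with Slc25a5 at -1.66 ± 0.30 and Vdac2 at -1.61 ± 0.35.

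Genes of the citric acid cycle were called in both directions in PAP TRAP against cortex TRAP. In cortex TRAP against cortex input 8 of 14 genes were higher and none lower, against 15.9% and 19.5% of all genes. The smallest p belonged to Suclg2 (4.20 ± 0.54) and citrate synthase, Cs (1.92 ± 0.26). In PAP TRAP against cortex TRAP 8 were lower, led by Idh3b (-1.36 ± 0.27) and Suclg1 (-2.39 ± 0.53), and 2 were called higher, among them Ogdh, a subunit of the oxoglutarate dehydrogenase complex (0.88 ± 0.29). Of all genes, 14.6% were called lower and 19.3% higher in that comparison. Mdh2, malate dehydrogenase, was the 1 gene of 14 called in PAP TRAP against synaptoneurosome input, at 1.07 ± 0.29 (edgeR adjusted p 0.0386). There 3.0% of all genes were called higher. Of 8 regulators of respiratory genes, Gabpa, an ETS-family factor of respiratory promoters, was higher in cortex TRAP (1.61 ± 0.35) and Ppargc1b, a coactivator, was lower (-4.91 ± 1.03, with 0.198 ± 0.295 CPM in cortex TRAP against 6.50 ± 5.06 CPM in cortex input). Against cortex TRAP, Ppargc1b was higher in PAP TRAP (5.55 ± 1.05), and Tfam, the mitochondrial transcription factor, and Gabpa were lower (-2.08 ± 0.61 and -0.94 ± 0.35). Of the 8, 1 was thus higher and 2 were lower in PAP TRAP than in cortex TRAP, against 19.3% and 14.6% of all genes.

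Promoters of respiratory genes are known to hold sites of NRF1 and of ETS-family factors. RefSeq promoters (GRCm38.p6) were matched for 25 of the 33 genes. In the 250 bases upstream of the start, on either strand, the NRF1 core GCGCATGC was found for 2 of 25 genes (8.0%), against 2.56% of 27025 genes, and the ETS core CCGGAAG for 7 of 25 (28.0%), against 7.83%. The promoters with either were those of Sdhb, Sdhd, Uqcrh, Uqcr11, Cox6a1, Cox6b1, Atp5h and Atp5j, 8 of 25 (32.0%), against 9.99% of all genes. Cox6a1, the gene called higher in synaptoneurosome input than in cortex input, was the only 1 of the 25 with both, and its upstream bases are printed with those of Sdhc's partner Sdhb, the other gene with an NRF1 core; capitals mark the motifs, and in Cox6a1 the NRF1 core lies on both strands and overlaps itself. A match is a description of letters and not of binding. The windows are chr5:115348959-115349208 (minus strand) and chr4:140961021-140961270 (plus strand). They are upstream of the RefSeq start. In GENCODE M21 Cox6a1 begins at 115348981 and Sdhb at 140961203, inside these windows. By those bounds the ETS core of Cox6a1 and the NRF1 core of Sdhb lie within the genes.
Cox6a1 upstream: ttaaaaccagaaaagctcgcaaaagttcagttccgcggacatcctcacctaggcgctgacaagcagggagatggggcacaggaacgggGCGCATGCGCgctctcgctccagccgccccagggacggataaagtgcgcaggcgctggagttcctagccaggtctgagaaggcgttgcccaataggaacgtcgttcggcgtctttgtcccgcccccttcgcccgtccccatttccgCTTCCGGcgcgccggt
Sdhb upstream: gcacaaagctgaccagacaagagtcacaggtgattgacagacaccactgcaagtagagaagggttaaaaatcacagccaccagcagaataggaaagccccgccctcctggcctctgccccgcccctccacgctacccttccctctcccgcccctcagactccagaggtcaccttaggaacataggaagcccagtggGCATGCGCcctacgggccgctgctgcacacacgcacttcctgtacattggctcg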

How the data were processed

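RNA-seq was made from 12 libraries, with 2 ng of RNA amplified by SPIA and 500 ng of cDNA cut to fragments of about 200 bp, per the labels' protocols. The deposited values are raw counts per Ensembl gene, 1 table per library. Trimmomatic 0.32, Bowtie2, STAR and HTSeq are named in the submitters' processing notes. For the counting, the genome build, annotation and strand setting were not given in the sources used here. Entries that name no gene held 20.3% to 55.5% of all counts and were left out.

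Symbols were matched for 40254 of 41388 identifiers. In edgeR 4.0.16 (R 4.3.3, limma 3.58.1), genes passing filterByExpr (minimum count 10, minimum total 15) were scaled by TMM (factors 0.191 to 2.46) and fitted by glmQLFit over all 12 libraries, 1 mean per group, with quasi-likelihood F tests for 4 comparisons and for the difference between both enrichments. Calls are at a Benjamini-Hochberg adjusted p under 0.05 over all 13364 genes, and intervals are 95%. The scripts were tested on simulated data. CPM per kilobase uses 1 representative GENCODE M21 transcript per gene. The length correction adds offsets from a loess (span 0.3) of each library's log2 CPM, taken relative to the gene's mean, on transcript length.

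Alternatives were DESeq2 1.42.0, other scaling, no filter, the compared groups alone, no genes of the mitochondrial chromosome, length and GC corrections, a replicate block, and each library left out. The subunits, the other gene lists and the tests were chosen with earlier results of these data known. Every subunit is named; values in every library are given for those that the results turn on, and from each other list at most 2 genes that rose and 2 that fell are named, by smallest p; a result for 1 gene is not reported here. The labels name no molecular identifiers, so amplification duplicates may be among the counts.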

Additional observations from a re-analysis of the deposited data

Results flagged for a closer look

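The difference between both enrichments (PAP TRAP over synaptoneurosome input, minus cortex TRAP over cortex input, in log2) passed the edgeR interaction test for 17 subunit genes and for 3 mtDNA-encoded ones, and these are listed for a closer look. In complex II they were Sdhb (-1.76) and Sdhc (-1.49). In complex III they were Uqcrfs1 (-1.66), Uqcrh (-1.94), Uqcr10 (-1.73), Uqcr11 (-1.69) and Cyc1 (-1.32). In complex IV they were Ndufa4 (-1.45), Cox4i1 (-1.44), Cox5b (-2.33), Cox6a1 (-2.07), Cox6b1 (-1.99) and Cox6c (-1.83), with Cox7a2 (-1.42) and Cox8a (-1.67) beside them. In complex V they were Atp5c1 (-1.11) and Atp5g3 (-1.44). All 17 nuclear values were negative, so the change over input was lower in the processes than in whole tissue. Some of the 17, such as Cox6c and Cox5b, lay below synaptoneurosome input in PAP TRAP, and others, such as Sdhc, lay above. None was called in PAP TRAP against synaptoneurosome input. With offsets corrected for transcript length 5 of 33 passed the test, against 8.66% of all genes called negative.

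The mtDNA-encoded genes had positive values, mt-Cytb (3.53), mt-Co1 (5.11) and mt-Co2 (4.23). mt-Co2 had 0 counts in every cortex TRAP library, so the prior count sets its fitted value, which bounds nothing.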

How the results depend on the processing

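Direction held for every called subunit under DESeq2, RLE scaling, no count filter, the compared groups alone, GC correction, no genes of the mitochondrial chromosome and the replicate block, with the interaction not refitted on the compared groups alone because it uses all 4. It did not under the length corrections. The 3 versions used the representative transcript, the longest transcript and the coding length, the last 2 chosen after seeing the data, and are given in that order. Cortex TRAP over cortex input then had 11, 10 and 12 subunits higher (medians 0.58, 0.49 and 0.79); Ndufa4 was at -0.022 and -0.053 and Cox6c at -0.020 and -0.074 under the last 2. PAP TRAP over cortex TRAP had 2, 1 and 3 lower (medians -0.30, -0.30 and -0.32), with Cox8a at 0.18, 0.23 and 0.44, Cox7a2 at 0.012 and 0.13 under the last 2, and Cox6b1 at 0.020 and Cox6c at 0.19 by coding length; none of these was called. The interaction had 5, 2 and 1 negative (medians -0.84, -0.71 and -0.72), PAP TRAP over synaptoneurosome input 1 lower each time, and synaptoneurosome input over cortex input 6 higher each time (medians 0.48, 0.42 and 0.41). With the representative transcript, the shares of all genes called were 16.7% higher, 12.8% lower, 8.66% negative, 2.05% lower and 8.74% higher, in the same order. Shares for the last 2 versions are not given here. The cause of the shifts under length correction was not tested.

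In PAP TRAP over synaptoneurosome input, DESeq2 called 2 higher and 2 lower, and the fit with no genes of the mitochondrial chromosome called 2 higher. That fit moved the median of all genes to 0.17, -0.11 and 0.14 in PAP TRAP over synaptoneurosome input, PAP TRAP over cortex TRAP and the interaction, against 0.06, -0.28 and 0.03. Synaptoneurosome input over cortex input had 5 higher by DESeq2, 4 with the compared groups alone and 3 with GC correction (median 0.21). Calls were also lost: 7 of 25 in PAP TRAP over cortex TRAP with the compared groups alone, 3, 4 and 4 in cortex TRAP over cortex input, PAP TRAP over cortex TRAP and the interaction with no filter, and 3 in PAP TRAP over cortex TRAP and 4 in the interaction with no genes of the mitochondrial chromosome. With GC correction 1 call was lost and 2 were gained in cortex TRAP over cortex input. In PAP TRAP over cortex TRAP that correction lost 3 and gained 1. Over all gene counts the 33 genes held 0.270% in PAP TRAP, 0.0535% in synaptoneurosome input and 0.295% in cortex input, since mitochondrial counts enter the total.

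With 1 library left out, counts ran from 16 to 26 higher in cortex TRAP over cortex input (median 1.07 to 1.32), 0 to 1 higher and 0 to 1 lower in PAP TRAP over synaptoneurosome input (-0.13 to 0.22), 18 to 25 lower and 0 to 1 higher in PAP TRAP over cortex TRAP (-1.45 to -1.10; Sdha, at 0.91 without cortex TRAP replicate 1), 0 to 1 higher in synaptoneurosome input over cortex input (-0.14 to 0.09) and 6 to 20 negative in the interaction (-1.60 to -1.09).

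Replicate numbers shared across groups were not used as pairs. The 18 same-number correlations were 0.0057 to 0.0804, all positive but under the 0.1 set for pairing. The 36 different-number correlations were -0.0697 to 0.0551. Whether equal numbers mark a shared preparation is not settled by these values. With a replicate block the counts were 25 higher, 0, 25 lower, 1 higher and 17 negative. The synaptoneurosome inputs, with the fewest nuclear counts, limit the depth of the comparisons that use them.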
